A study of Homo sapiens with 9 samples.

Results

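Expression of 44 interferon-induced effector genes was followed in T47D cells, a progesterone receptor-positive human luminal breast cancer line. The genes were listed by symbol as interferon-inducible genes outside the IFIT, OAS, MX and TRIM, PARP, ISG15 and antigen-processing groups, and each was represented by the probe set with the highest mean among those annotated to that symbol alone. Of the 44 genes, 41 had such a probe set, out of 18417 genes with one on the array. TDRD7 and PHF11 were not analysed here, and GBP1 was read only through a probe set that it shares with GBP3 and a pseudogene. No filter on low values was applied, so all 41 genes were tested, among 21214 probe sets with a gene symbol.

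The study asked how far the ETS transcription factor ELF5 carries the transcriptional effects of progestin. Gene arrays were run on 9 RNA samples, 3 from each of 3 groups. The first group received the synthetic progestin ORG2058 (10 nM) together with doxycycline (0.1 µg/ml) for 4 days, the second received ORG2058 (10 nM) alone for 4 days, and the third received ethanol vehicle only. All the cells of the 3 groups were T47D carrying the retroviral pHUSH vector with a doxycycline-inducible short hairpin RNA against ELF5, kept under puromycin selection, and cells of several wells were pooled for each RNA sample. The design text calls the triplicates independent experiments, and no passage or batch is named. The tests below therefore rest on the variation among triplicate arrays, whatever its source. A single hairpin line was used, and no vehicle cells given doxycycline, no other hairpin and no line without the vector were among the samples used here. Effects of the hairpin and of doxycycline itself therefore cannot be told apart. The labels give no duration for the vehicle treatment.

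Interferons bind cell-surface receptors whose JAK kinases phosphorylate STAT proteins. After type I and type III interferons, a complex that contains IRF9 binds the interferon-stimulated response element (ISRE) in promoters, and genes that answer to interferon gamma often carry the gamma-activated sequence (GAS). The genes switched on in this way include proteins that block virus entry, enzymes that act on viral RNA, components of nuclear bodies, cell death proteins and chemokines, and several of them are often raised in breast tumours without an infection.

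ELF5 itself followed the labels. Its log2 level was 10.44, 10.46 and 10.35 with progestin plus doxycycline, 11.31, 11.23 and 11.31 with progestin and 10.26, 10.21 and 10.05 with vehicle, and the 3 groups did not overlap. Its level fell by 0.87 on the log2 scale with progestin plus doxycycline relative to progestin (adjusted p = 0.029 by limma with Benjamini-Hochberg adjustment). Over 9 fits that left out 1 array each, that adjusted p lay between 0.0263 and 0.149 and was under 0.05 in 1 of them, the fit without vehicle replicate 3. It was 0.203 with a replicate block and 0.175 with only those groups fitted, while the log2 change stayed at -0.87. The other settings that kept all 9 arrays left it under 0.05. Among them it was 4.25e-08 under a variance trend with robust estimation, 0.00968 after quantile normalization and 0.0097 under array weights. The highest of these was 0.0339, when all probe sets were tested. Relative to vehicle, ELF5 rose by 1.11 with progestin (adjusted p = 2.06e-05). Over the 9 arrays the median named probe set ranged over 7.19 to 7.28. Among 9 luminal breast markers, 8 lay above the median level of named probe sets with progestin plus doxycycline, 8 with progestin and 9 with vehicle. With progestin relative to vehicle, 4 of the 9 were called lower, PGR (-2.28), TFF1 (-0.84), GATA3 (-0.51) and ESR1 (-0.50), and KRT19 was called higher (0.46). Of 12 immune cell markers, 11 were measured. Their summed level on the log2 scale was 9.08 to 9.49 with progestin plus doxycycline, 9.45 to 9.54 with progestin and 9.22 to 9.57 with vehicle, and 1 of the 11 lay above the median in each group. None of the 11 was called in any of the 3 comparisons by limma, and 0, 0 and 1 had an unadjusted p under 0.05 in the contrasts of progestin plus doxycycline with progestin, progestin with vehicle, and progestin plus doxycycline with vehicle. Of all probe sets, 14% had an unadjusted p under 0.05 in the first of these contrasts. At the stricter adjusted p under 0.05, 13.4% were higher and 15.6% lower in the second, and 15.6% and 12.5% in the third. Markers of other cell types moved in part. Of 5 endothelial markers, PECAM1 and CDH5 were called higher with progestin relative to vehicle (0.34 and 0.30), and their list's summed log2 level was 9.59 to 9.76 with progestin plus doxycycline, 9.59 to 9.80 with progestin and 9.39 to 9.53 with vehicle. Of 4 measured basal and myoepithelial markers, KRT5 was called higher (0.61) and ACTA2 lower (-0.30), with summed levels of 8.998 to 9.16, 9.06 to 9.20 and 9.02 to 9.22 for progestin plus doxycycline, progestin and vehicle. Of 7 fibroblast markers, COL1A1 was called lower (-0.42), with summed levels of 9.07 to 9.24, 8.98 to 9.14 and 9.18 to 9.45 for the same groups. The part of these marker shifts in the results below was not tested. Vehicle replicate 3 was the lowest vehicle array for 30 of the 41 genes, against 49.9% of all probe sets, and its median difference from the other vehicle arrays was -0.22 over the 41 genes and -0.05 over all probe sets.

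Most of these genes were higher after 4 days of progestin. With progestin relative to vehicle, 33 of 41 genes rose, 1 fell (SLFN11) and 7 did not pass an adjusted p of 0.05, whereas 13.4% of all probe sets rose and 15.6% fell. At least 2-fold rises that passed the test were seen for 28 of the 41 genes, against 2.58% of all probe sets. The median log2 change of the 41 genes was 1.28, with a range of -1.54 to 5.20, and that of all probe sets was 0.02. In 34 of 41 genes every progestin array was above every vehicle array, against 20.8% of all probe sets, and in 1 gene every progestin array was below, against 21.5%. Leaving out vehicle replicate 3 gave 34 higher and 1 lower, with a median log2 change of 1.29. These were bulk RNA samples, in which a change in the number of cells of one kind and a change in RNA per cell cannot be told apart.

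**Figure D1:**
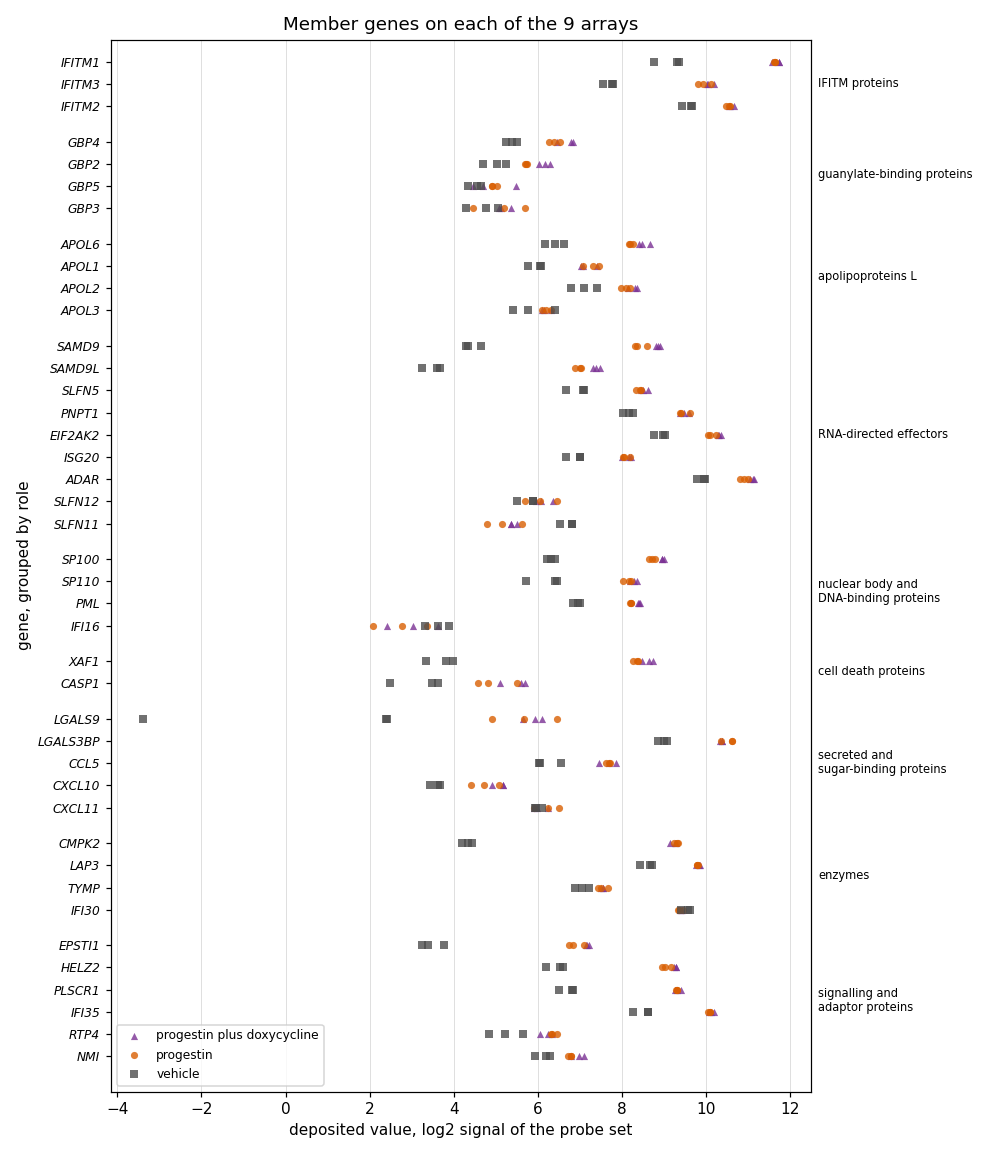
Log2 level of each of the 41 genes on every array, 1 row per gene and 1 point per array, grouped by role, for progestin plus doxycycline, progestin and vehicle. In 34 of 41 rows the progestin points lie above all vehicle points, and SLFN11 is the row in which they lie below. The points of both progestin groups mostly run together. LGALS9 has a vehicle point at -3.40.

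The sharpest rises belonged to genes that were dim in vehicle cells. CMPK2, a mitochondrial nucleotide kinase, had log2 levels of 9.29, 9.26 and 9.14 with progestin plus doxycycline, 9.33, 9.31 and 9.24 with progestin and 4.44, 4.20 and 4.35 with vehicle. Both progestin groups were far above vehicle, and the arrays within each group differed by little beside that gap. The log2 change with progestin relative to vehicle was 4.97 (SE 0.0839, adjusted p = 3.32e-08), a fold of 31.2. Adding 16 to each linear value, which damps folds of dim probe sets, left a fold of 17.8. XAF1, a pro-apoptotic protein that binds XIAP, was at 8.47, 8.74 and 8.63 with progestin plus doxycycline, 8.36, 8.39 and 8.26 with progestin and 3.34, 3.98 and 3.81 with vehicle. Its groups with progestin lay above every vehicle array, and it rose by 4.63 (SE 0.158, adjusted p = 5.33e-07) with progestin relative to vehicle, a fold of 11.6 with 16 added.

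SAMD9 and SAMD9L, neighbouring genes for cytoplasmic proteins that restrict poxviruses and slow translation, rose together. SAMD9 was at 8.81, 8.90 and 8.86 with progestin plus doxycycline, 8.35, 8.32 and 8.60 with progestin and 4.64, 4.34 and 4.29 with vehicle. SAMD9L was at 7.32, 7.48 and 7.39 with progestin plus doxycycline, 7.03, 6.99 and 6.89 with progestin and 3.59, 3.68 and 3.25 with vehicle. For both genes the 3 groups were fully apart, with the highest arrays in the cells given progestin plus doxycycline. Arrays with progestin plus doxycycline were all above the progestin arrays in 14.8% of all probe sets. For SAMD9 and SAMD9L that difference was not called by limma (adjusted p = 0.18 and 0.181). With progestin relative to vehicle the log2 changes were 4.00 (SE 0.116, adjusted p = 2.25e-07) and 3.46 (SE 0.116, adjusted p = 4.53e-07), or folds of 16 and 11, and of 9.59 and 5.16 with 16 added. EPSTI1, named for the interaction of breast epithelium with stroma, was at 7.16, 7.21 and 7.15 with progestin plus doxycycline, 7.11, 6.74 and 6.83 with progestin and 3.77, 3.39 and 3.24 with vehicle. No array with progestin came near a vehicle array, and the log2 change was 3.43 (SE 0.146, adjusted p = 1.56e-06), a fold of 10.7, or 4.97 with 16 added.

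LGALS9, which encodes the sugar-binding protein galectin-9, gave a large but uncertain change. It read 5.65, 6.10 and 5.94 with progestin plus doxycycline, 5.66, 4.91 and 6.45 with progestin and 2.39, -3.40 and 2.42 with vehicle. The progestin arrays were all above the vehicle arrays, but vehicle replicate 2 lay far below the other vehicle arrays, and the log2 change of 5.20 (SE 1.39, adjusted p = 0.0239) had a 95% interval of 2.00 to 8.40. That value rested on vehicle replicate 2, and without it the log2 change was 3.27 (adjusted p = 0.00104), below those of CMPK2, XAF1, SAMD9, SAMD9L and EPSTI1. Without vehicle replicate 1 or 3 it was 6.16 or 6.18. With 16 added to the linear values the fold was 3.52 (adjusted p = 0.000151). The call was lost without progestin replicate 1 (adjusted p = 0.0604) or without progestin replicate 3 (adjusted p = 0.0667). A pair of brighter probe sets shared by LGALS9 and its copies LGALS9B and LGALS9C rose by 4.07 and 4.04 with progestin relative to vehicle. With vehicle they were also dim, at 3.69, 3.40 and 2.98 for the first and 3.96, 3.65 and 3.38 for the second. Folds with 16 added are not given for them.

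**Figure D2:**
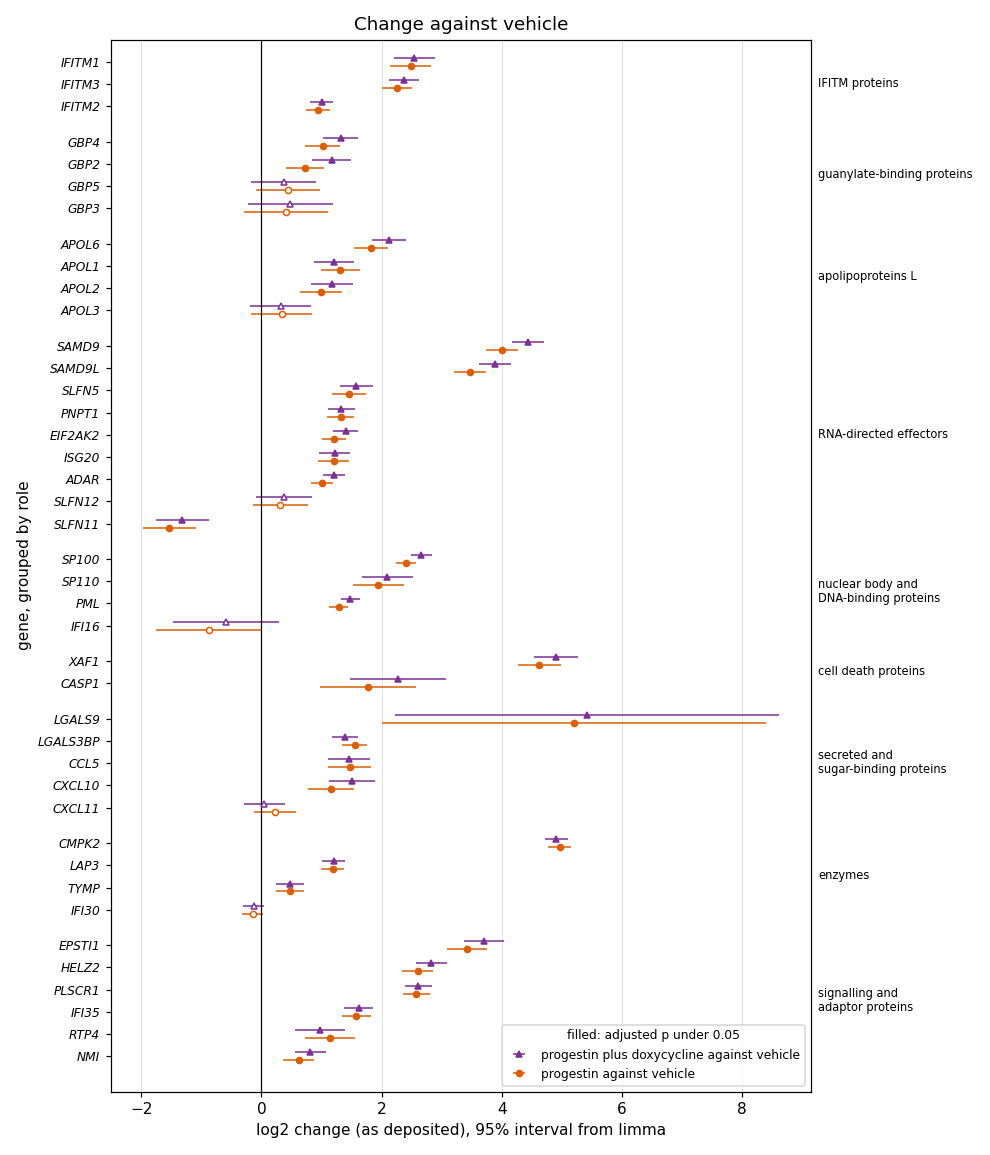
Log2 change relative to vehicle for each of the 41 genes, grouped by role, with progestin plus doxycycline and with progestin. Points are estimates, bars are 95% intervals, filled points passed an adjusted p of 0.05. LGALS9 has the widest interval, and SLFN11 is the gene that lies below 0 and passed the test.

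Among the IFITM proteins, membrane proteins that block fusion of enveloped viruses, 3 of 3 genes rose with progestin. IFITM1 was at 11.58, 11.75 and 11.73 with progestin plus doxycycline, 11.64, 11.63 and 11.62 with progestin and 9.30, 9.36 and 8.77 with vehicle. The progestin arrays nearly coincided, vehicle replicate 3 was the lowest array, and the log2 change was 2.48 (SE 0.148, adjusted p = 8.94e-06). IFITM3 was at 10.02, 10.04 and 10.18 with progestin plus doxycycline, 9.94, 10.12 and 9.81 with progestin and 7.79, 7.77 and 7.55 with vehicle, again with no overlap, and rose by 2.25 (SE 0.108, adjusted p = 3.02e-06). IFITM2 rose less, by 0.94 (SE 0.0836, adjusted p = 7.6e-05). The IFITM genes are close copies of each other, and whether a probe set of one also binds RNA of another was not tested.

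The guanylate-binding proteins, large GTPases that attack the vacuoles of intracellular microbes, were mixed. GBP4 had log2 levels of 6.53, 6.27 and 6.39 with progestin and 5.50, 5.39 and 5.23 with vehicle and rose by 1.02 (SE 0.128, adjusted p = 0.000526). GBP2 rose by 0.72 (SE 0.139, adjusted p = 0.00515). GBP3 had overlapping arrays, with 5.69, 4.46 and 5.20 with progestin and 4.29, 4.77 and 5.06 with vehicle, and its log2 change of 0.41 did not pass the test (adjusted p = 0.372). GBP5 gave 5.02, 4.91 and 4.91 with progestin and 4.55, 4.34 and 4.64 with vehicle. Its progestin arrays were all above its vehicle arrays, yet the log2 change of 0.44 had an adjusted p of 0.21, or 0.02 without progestin plus doxycycline replicate 3. The probe set shared by GBP1, GBP3 and the pseudogene GBP1P1 read 7.70, 7.82 and 7.74 with progestin plus doxycycline, 7.41, 7.20 and 7.21 with progestin and 5.60, 5.78 and 5.28 with vehicle. It rose by 1.72 with progestin relative to vehicle (SE 0.129, adjusted p = 2.84e-05), and which of the 3 genes carried that signal cannot be told apart.

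Of the 4 apolipoproteins L, a cluster whose APOL1 lyses trypanosomes, 3 rose with progestin. APOL6 was at 8.47, 8.68 and 8.41 with progestin plus doxycycline, 8.27, 8.20 and 8.17 with progestin and 6.41, 6.61 and 6.16 with vehicle and showed the largest of these changes, 1.82 (SE 0.123, adjusted p = 1.72e-05). APOL1 rose by 1.31 (SE 0.143, adjusted p = 0.000244) and APOL2 by 0.99 (SE 0.153, adjusted p = 0.00171). APOL3 read 6.19, 6.30 and 6.11 with progestin and 5.78, 5.41 and 6.41 with vehicle. Vehicle replicate 3 was above all its progestin arrays, and the log2 change of 0.34 did not pass (adjusted p = 0.304). Without vehicle replicate 3 the APOL3 change was 0.61 (adjusted p = 0.0128).

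The proteins that act on RNA and translation rose as well. EIF2AK2 encodes PKR, the double-stranded RNA-activated kinase that halts translation, and was at 10.31, 10.35 and 10.29 with progestin plus doxycycline, 10.23, 10.04 and 10.10 with progestin and 9.02, 8.97 and 8.77 with vehicle. ADAR, the adenosine deaminase that edits double-stranded RNA, was at 11.05, 11.12 and 11.14 with progestin plus doxycycline, 11.00, 10.82 and 10.91 with progestin and 9.97, 9.95 and 9.80 with vehicle. In both genes all vehicle arrays were below all arrays with progestin, and the log2 changes with progestin relative to vehicle were 1.20 (SE 0.0888, adjusted p = 2.68e-05) and 1.00 (SE 0.0795, adjusted p = 4.04e-05). The exonuclease genes ISG20 and PNPT1 rose by 1.20 (SE 0.112, adjusted p = 9.92e-05) and 1.32 (SE 0.0973, adjusted p = 2.67e-05). SLFN5, of the Schlafen family, rose by 1.46 (SE 0.122, adjusted p = 5.28e-05). Counting SAMD9 and SAMD9L, 7 of the 9 genes of this group rose and 1 fell.

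SLFN11 was the gene that fell. It encodes a Schlafen protein that cleaves transfer RNA, restricts HIV and sensitises cells to DNA-damaging drugs. Its log2 level was 5.51, 5.36 and 5.35 with progestin plus doxycycline, 5.15, 5.62 and 4.80 with progestin and 6.82, 6.82 and 6.53 with vehicle. Both groups given progestin lay below every vehicle array, so its direction was opposite to that of SLFN5. SLFN11 fell by 1.54 on the log2 scale with progestin relative to vehicle (SE 0.191, adjusted p = 0.000509), a 2.9-fold lower level. The remaining Schlafen gene, SLFN12, read 6.06, 5.71 and 6.46 with progestin and 5.88, 5.90 and 5.51 with vehicle with overlapping arrays and a log2 change of 0.32 (adjusted p = 0.295).

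Of 4 genes for nuclear body and DNA-binding proteins, 3 rose. SP100, a core component of PML nuclear bodies, was at 8.96, 9.01 and 8.95 with progestin plus doxycycline, 8.73, 8.65 and 8.78 with progestin and 6.41, 6.31 and 6.22 with vehicle, and its log2 change with progestin relative to vehicle was 2.41 (SE 0.0738, adjusted p = 2.96e-07). PML, the protein that builds these bodies, was at 8.40, 8.38 and 8.43 with progestin plus doxycycline, 8.22, 8.22 and 8.20 with progestin and 6.83, 7.01 and 6.95 with vehicle and rose by 1.28 (SE 0.0689, adjusted p = 5e-06). In both genes the 3 groups were fully apart, but the difference between the groups with progestin was not called by limma (adjusted p = 0.203 and 0.291). PML had SDs of 0.0219, 0.0133 and 0.0948 for progestin plus doxycycline, progestin and vehicle (n = 3 each). A much brighter probe set that SP100 shares with CTCFL and HMGB1, at 11.49, 11.51 and 11.42 with vehicle, moved the other way, by -0.77 (adjusted p = 0.000122). Which of the genes that share it carried that signal was not tested. SP110, a related nuclear body protein, was at 8.19, 8.37 and 8.29 with progestin plus doxycycline, 8.16, 8.02 and 8.21 with progestin and 6.45, 6.40 and 5.71 with vehicle. Vehicle replicate 3 stood apart on the low side, and the log2 change was 1.95 (SE 0.185, adjusted p = 0.000112). IFI16, a sensor of DNA in the nucleus, stayed dim in all 3 groups, with 3.63, 2.41 and 3.02 with progestin plus doxycycline, 3.37, 2.77 and 2.08 with progestin and 3.88, 3.32 and 3.63 with vehicle. Its arrays overlapped, and its log2 change of -0.87 did not pass (adjusted p = 0.129).

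CASP1, the inflammasome protease that matures interleukin-1 beta, was dim and scattered, at 5.09, 5.69 and 5.60 with progestin plus doxycycline, 5.50, 4.58 and 4.82 with progestin and 3.62, 3.49 and 2.48 with vehicle. Its groups with progestin were nonetheless above all vehicle arrays, and the log2 change was 1.77 (SE 0.348, adjusted p = 0.00577), a fold of 1.87 with 16 added. Of the secreted proteins, CCL5, a chemokine for T cells, read 7.87, 7.45 and 7.69 with progestin plus doxycycline, 7.61, 7.70 and 7.71 with progestin and 6.05, 6.54 and 6.04 with vehicle and rose by 1.47 (SE 0.156, adjusted p = 0.00021). LGALS3BP, a secreted glycoprotein that binds galectin-3, rose by 1.55 (SE 0.0928, adjusted p = 9.27e-06). The chemokines CXCL10 and CXCL11, ligands of the receptor CXCR3, gave different results. CXCL10 was at 4.41, 4.72 and 5.07 with progestin and 3.68, 3.62 and 3.43 with vehicle and rose by 1.15 (SE 0.165, adjusted p = 0.00109), a fold of 2.22, or 1.53 with 16 added. CXCL11 was at 6.24, 6.49 and 5.92 with progestin and 5.94, 6.09 and 5.94 with vehicle, its arrays overlapped, and its log2 change of 0.23 had an adjusted p of 0.316 and a 95% interval of -0.12 to 0.57. Whether the responses of CXCL10 and CXCL11 differ was not tested.

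All 6 measured signalling and adaptor genes rose. PLSCR1, a phospholipid scramblase with antiviral activity, read 9.27, 9.41 and 9.30 with progestin plus doxycycline, 9.30, 9.28 and 9.30 with progestin and 6.81, 6.84 and 6.51 with vehicle, and its log2 change was 2.58 (SE 0.0975, adjusted p = 8.59e-07). HELZ2, a helicase that co-activates PPAR nuclear receptors, read 9.24, 9.28 and 9.28 with progestin plus doxycycline, 9.02, 8.95 and 9.16 with progestin and 6.59, 6.54 and 6.20 with vehicle, and its log2 change was 2.60 (SE 0.111, adjusted p = 1.62e-06). In both genes vehicle replicate 3 was the lowest array, and even the highest vehicle array was more than 2 log2 units below the arrays with progestin. IFI35 and NMI encode proteins that bind each other. IFI35 was at 10.12, 10.20 and 10.07 with progestin plus doxycycline, 10.10, 10.10 and 10.06 with progestin and 8.63, 8.63 and 8.26 with vehicle, with no overlap between the vehicle arrays and the others, and rose by 1.58 (SE 0.106, adjusted p = 1.67e-05). NMI rose by 0.62 (SE 0.111, adjusted p = 0.00371). RTP4, a chaperone of G protein-coupled receptors, rose by 1.13 (SE 0.181, adjusted p = 0.00201). Among the enzymes other than CMPK2, the aminopeptidase LAP3 rose by 1.18 (SE 0.0859, adjusted p = 2.46e-05) and TYMP, thymidine phosphorylase, by 0.47 (SE 0.102, adjusted p = 0.00882).

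IFI30, the lysosomal thiol reductase GILT that unfolds antigens for presentation on MHC class II, was not called. Its log2 level was 9.43, 9.40 and 9.37 with progestin plus doxycycline, 9.46, 9.37 and 9.33 with progestin and 9.57, 9.62 and 9.41 with vehicle. The arrays of the 3 groups overlapped, and the change with progestin relative to vehicle was -0.15 (adjusted p = 0.203), with a 95% interval of -0.32 to 0.03. It was the 1 gene among the 7 uncalled ones whose mean lay above the median level of named probe sets.

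Most of the interferon genes themselves were dim, and their calls varied with the setting. IFNL3 was not dim, with group means of 8.29 with progestin plus doxycycline, 8.53 with progestin and 8.34 with vehicle. Those means lay above the median level of named probe sets (7.23), and IFNL1 lay near it, at 6.82, 7.20 and 7.05 for the same groups. Of 11 interferon ligand genes, 10 were measured, and 0 passed an adjusted p of 0.05 in any comparison in the limma fit to all 9 arrays. With an unadjusted p under 0.05 there was 1 of 10 for progestin plus doxycycline relative to progestin, 1 for progestin relative to vehicle and 3 for progestin plus doxycycline relative to vehicle. Of all probe sets, 14% had such a p in the first of these contrasts. At the stricter adjusted p under 0.05, 13.4% of all probe sets were higher and 15.6% lower in the second, and 15.6% and 12.5% in the third. IFNB1, interferon beta, read 3.36, 3.00 and 3.64 with progestin plus doxycycline, 3.33, 3.14 and 3.86 with progestin and 2.22, 0.55 and 3.53 with vehicle, dim values that overlapped between the groups. Among 19 alternative settings, at least 1 ligand gene was called in 0 with progestin plus doxycycline relative to progestin, in 4 with progestin relative to vehicle and in 12 with progestin plus doxycycline relative to vehicle, with at most 4 genes in any one setting. Without vehicle replicate 3, IFNB1 was higher by 2.05 with progestin relative to vehicle (adjusted p = 0.0177) and by 1.95 with progestin plus doxycycline relative to vehicle (adjusted p = 0.0225). IFNL2 was called higher with progestin plus doxycycline relative to vehicle with 16 added to the linear values (0.69, adjusted p = 0.0393) and without vehicle replicate 3 (1.32, adjusted p = 0.0299). In that contrast IFNL2 was also called with a variance trend and robust estimation (adjusted p = 0.0398), array weights (0.00921) and a replicate block (0.0365). The same held for IFNL2 without progestin plus doxycycline replicate 2 (adjusted p = 0.0449). IFNG was called lower against vehicle without progestin plus doxycycline replicate 3, with changes of -1.27 for progestin plus doxycycline and -0.84 for progestin. IFNK was lower by 0.83 with progestin plus doxycycline relative to vehicle and was called without progestin replicate 1 (adjusted p = 0.048) or replicate 2 (adjusted p = 0.00909). IFNK was also called lower there with quantile normalization, array weights and only those groups fitted. Array weights also called IFNB1 higher in both contrasts with vehicle, IFNL3 higher with progestin (0.27, adjusted p = 0.0296) and IFNG lower with progestin plus doxycycline. Leaving out vehicle replicate 3 with a variance trend and robust estimation called IFNB1 and IFNL2 higher in both contrasts with vehicle, and IFNL3 with progestin. The ligand genes named here were picked after their values were seen. Of 22 receptors, kinases and transcription factors of the pathway, 20 were measured, and 8 rose and 4 fell with progestin relative to vehicle, where 13.4% of all probe sets rose and 15.6% fell. IRF9, the DNA-binding subunit of the complex at the ISRE, was at 9.53, 9.76 and 9.61 with progestin plus doxycycline, 9.62, 9.53 and 9.50 with progestin and 7.73, 7.61 and 7.29 with vehicle, with no vehicle array near the others, and rose by 2.01 (SE 0.119, adjusted p = 8.77e-06). JAK2 rose by 2.00 and IRF7 by 1.74, while the receptor chains IFNGR2 and IFNAR2 fell by 1.12 and 1.06. Of 35 other interferon-induced genes, from the families left out of this list, 35 rose with progestin relative to vehicle, with a median log2 change of 2.71. These 35 were a selection from those families, made with earlier results of these data known, so their count is not independent support.

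Promoter sequences were examined because ISRE and GAS are the sites named above for this gene class. RefSeq windows of GRCh38.p14, 250 bases before to 50 bases after each listed transcription start, were matched to 32 of the 44 genes. The ISRE core, spelled GAAA, any 2 bases, GAAA and searched on both strands like the other motifs, was present in 16 of the 32 genes (50%), against 4.38% of 27305 genes with a window. The GAS letters TTCNNNGAA were present in 10 of 32 (31.2%), against 9.38% of all genes. The ETS core GGAAGT, of the class that ELF5 binds, was in 12 of 32 (37.5%), against 26.6%. The progesterone receptor element, spelled ACA, any 3 bases, TGT, flanked after 1 further base by G on the left and C on the right, was in 0 of 32, against 0.48%. These matches describe letters and not bound sites, and the letters of motifs can overlap, as GAS and ISRE do in EPSTI1 and IFITM1.

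Printed here are 150 bases before to 10 bases after the start for genes with large rises and an ISRE core, and for SLFN11, the gene that fell, which has none in its window. Capitals mark the ISRE core, which lies on the reverse strand in LGALS9. All are RefSeq sequence of build GRCh38.p14, written 5′ to 3′ along the gene. The windows are SAMD9 at chr7:93117970-93118129 (minus strand), EPSTI1 at chr13:42992232-42992391 (minus strand), PLSCR1 at chr3:146544598-146544757 (minus strand), IFITM1 at chr11:313890-314049 (plus strand), IFITM3 at chr11:320851-321010 (minus strand), LGALS9 at chr17:27631038-27631197 (plus strand) and SLFN11 at chr17:35373612-35373771 (minus strand).
SAMD9: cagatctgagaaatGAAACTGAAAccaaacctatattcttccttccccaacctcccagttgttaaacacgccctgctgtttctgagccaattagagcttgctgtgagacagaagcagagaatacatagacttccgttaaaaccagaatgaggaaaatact
EPSTI1: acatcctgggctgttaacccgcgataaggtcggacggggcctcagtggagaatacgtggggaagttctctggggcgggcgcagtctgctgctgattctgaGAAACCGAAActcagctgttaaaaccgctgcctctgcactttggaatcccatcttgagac
PLSCR1: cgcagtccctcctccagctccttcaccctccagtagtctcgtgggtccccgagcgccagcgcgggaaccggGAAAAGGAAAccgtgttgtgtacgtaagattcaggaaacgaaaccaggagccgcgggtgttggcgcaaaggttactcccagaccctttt
IFITM1: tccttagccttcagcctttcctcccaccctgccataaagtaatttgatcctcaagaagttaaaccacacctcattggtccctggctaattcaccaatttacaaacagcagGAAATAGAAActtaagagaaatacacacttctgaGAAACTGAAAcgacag
IFITM3: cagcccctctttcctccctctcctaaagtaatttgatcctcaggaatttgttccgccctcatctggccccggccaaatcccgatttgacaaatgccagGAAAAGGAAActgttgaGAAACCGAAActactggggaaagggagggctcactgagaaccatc
LGALS9: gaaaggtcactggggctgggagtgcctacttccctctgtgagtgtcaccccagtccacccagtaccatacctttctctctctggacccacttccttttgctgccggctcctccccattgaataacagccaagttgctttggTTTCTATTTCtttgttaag
SLFN11: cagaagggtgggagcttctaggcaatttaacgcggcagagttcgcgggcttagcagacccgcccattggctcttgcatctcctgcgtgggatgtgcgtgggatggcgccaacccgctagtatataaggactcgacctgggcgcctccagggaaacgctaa

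IFITM1 and IFITM3 each hold 2 ISRE cores close to the start, and SAMD9, EPSTI1, PLSCR1 and LGALS9 hold 1 each in the printed stretch. An ISRE core did not separate the genes by the size of their change. Of the 15 measured genes with a core, 14 rose with progestin relative to vehicle, 1 (GBP3) was not called, and the median log2 change was 1.20. Of the 15 measured genes whose windows lack it, 10 rose, 1 fell and 4 were not called, with a median of 1.32 and values up to the 4.97 of CMPK2. For the other 11 measured genes no window was used here, and 9 of them rose.

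**Figure D3:**
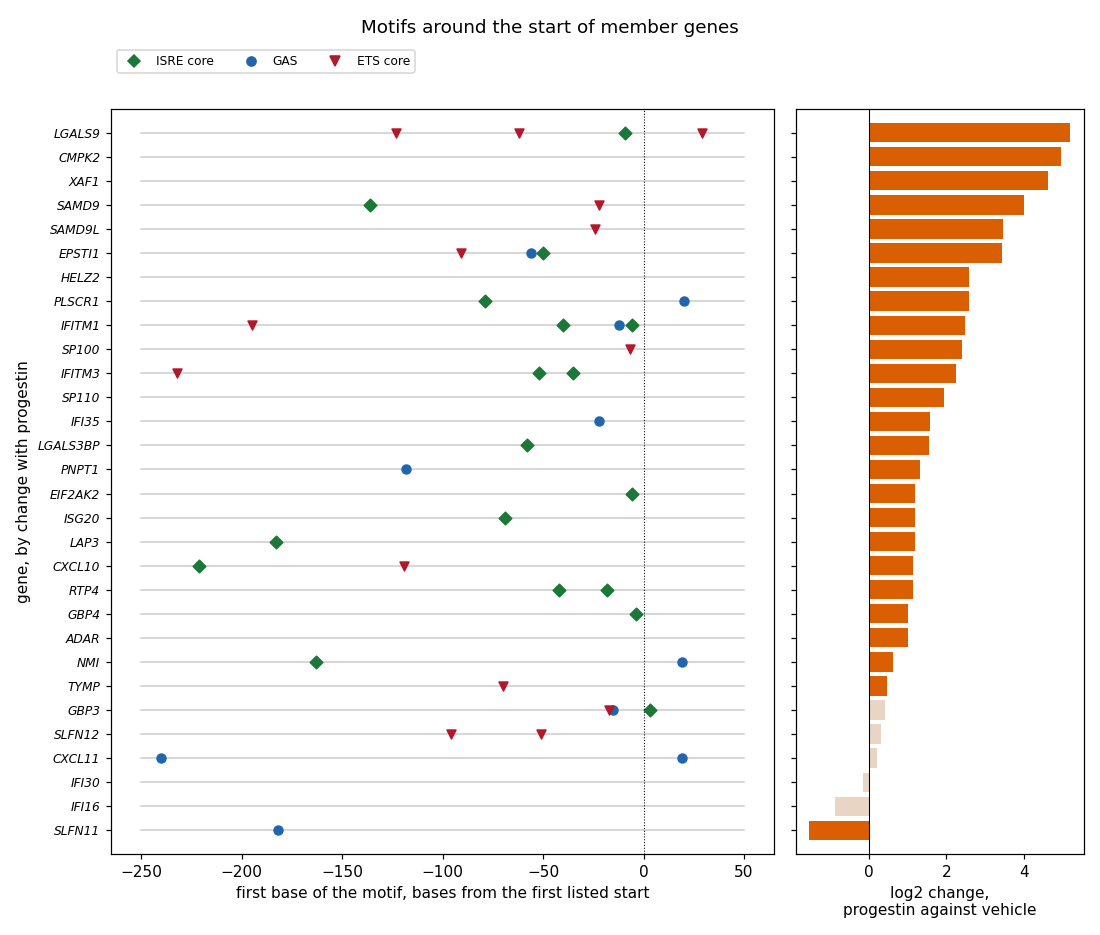
Positions of the searched motifs relative to the transcription start, in bases, for the first listed start of each measured gene with a window, with genes ordered by their log2 change. The bars give the log2 change with progestin relative to vehicle, pale where it was not called. ISRE cores stand in rows of large and of small changes alike, and the rows of CMPK2, XAF1 and HELZ2 hold no mark.

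With doxycycline added to progestin, where ELF5 was lower, none of these genes was called. With progestin plus doxycycline relative to progestin, 0 of 41 genes passed an adjusted p of 0.05 by limma, where 0.0189% of all probe sets did. With an unadjusted p under 0.05 there were 8 of 41, all positive, against 14% of all probe sets in either direction and 10.1% in the positive one. A variance trend with robust estimation also called 0 of the 41, while it called 2.25% of all probe sets higher. When vehicle replicate 3 was also left out, a setting chosen after the data were seen, 2 genes passed, SAMD9 (adjusted p = 0.03) and ADAR (adjusted p = 0.0411), against 3.56% of all probe sets called higher. The median log2 change was 0.12, against 0.03 over all probe sets. In 13 of 41 genes every array with progestin plus doxycycline was above every progestin array, against 14.8% of all probe sets, and in 0 of 41 every array was below, against 6.43%.

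The 41 changes leaned to the positive side, by an amount that depended on scaling. Positive values were found for 33 of 41 genes, against 56.1% of all probe sets. After quantile normalization, the count was 24 of 41, against 47.1% of all probe sets, and the median was 0.07. The sign changed in at least 1 of 19 alternative settings for 16 of the 41 genes, 9 of them under quantile normalization. For 21 of 41 genes the 95% interval of the change lay wholly within 0.5 log2 units of 0 on either side.

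**Figure D4:**
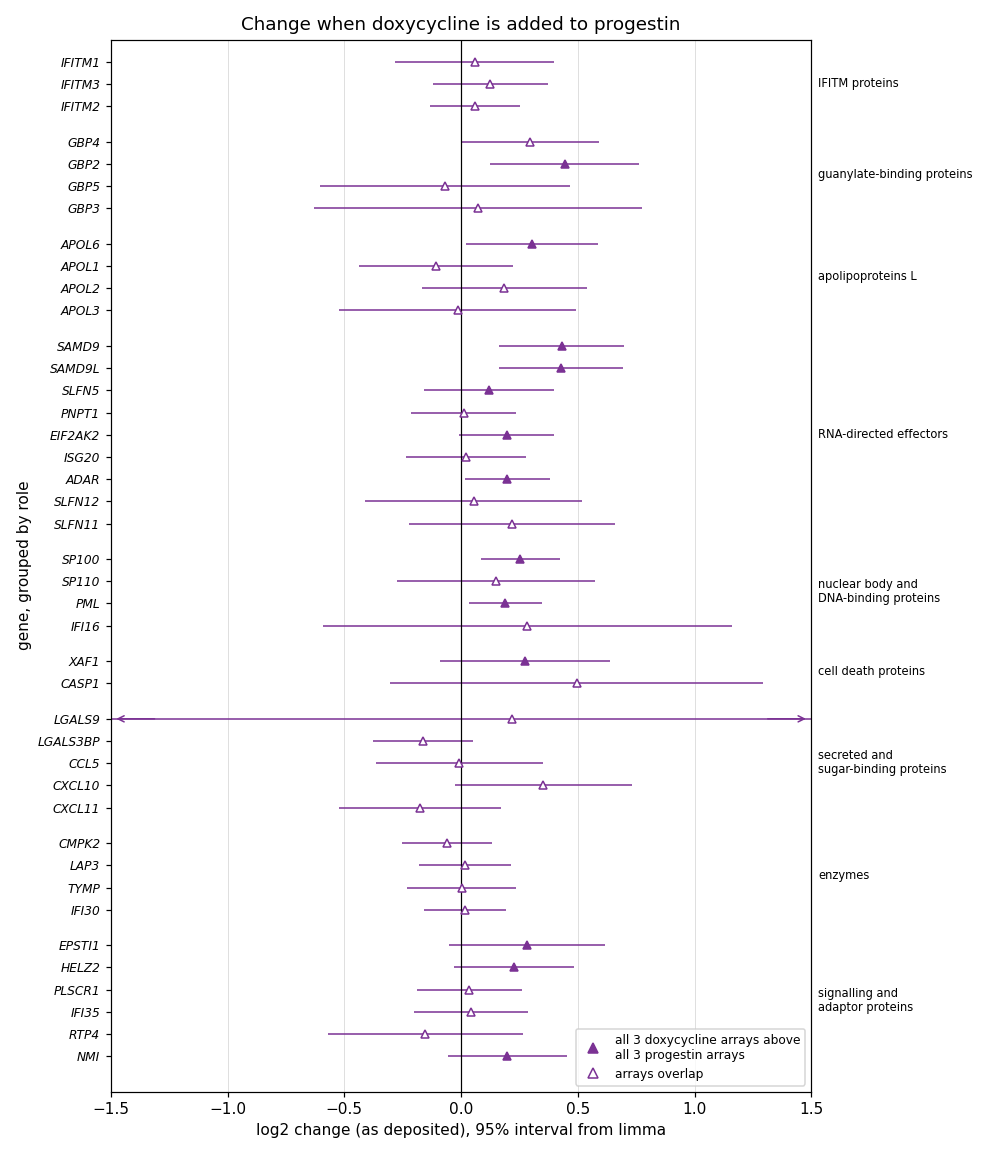
Log2 change with progestin plus doxycycline relative to progestin for each of the 41 genes, with 95% intervals, and marks for genes whose arrays did not overlap. None passed an adjusted p of 0.05, and 33 of 41 points lie above 0. The LGALS9 interval, -2.98 to 3.42, runs off the axis.

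The 5 genes with the smallest p in this contrast were SAMD9, SAMD9L, SP100, GBP2 and PML. In each of them the arrays with progestin plus doxycycline were all above the progestin arrays. SAMD9 differed by 0.43 (SE 0.116, adjusted p = 0.18) and SAMD9L by 0.43 (SE 0.116, adjusted p = 0.181). SP100 differed by 0.25 (SE 0.0738, adjusted p = 0.203), GBP2 by 0.44 (SE 0.139, adjusted p = 0.228) and PML by 0.19 (SE 0.0689, adjusted p = 0.291). GBP2 read 6.16, 6.29 and 6.02 with progestin plus doxycycline and 5.74, 5.69 and 5.71 with progestin. The other 36 genes lay between -0.18 and 0.49. The following were picked after their values were seen. CMPK2 and IFITM3, which had risen with progestin, differed by -0.06 (95% interval -0.25 to 0.13) and 0.12 (95% interval -0.12 to 0.37). LGALS3BP differed by -0.16 and CXCL11 by -0.18, both on the negative side and with overlapping arrays. SLFN11 differed by 0.22 (adjusted p = 0.663). For LGALS9 the interval, -2.98 to 3.42, was too wide to show a change of ordinary size. Outside these genes, 0 of 35 other interferon-induced genes and 0 of 20 receptors, kinases and factors were called in this contrast by limma. An unadjusted p under 0.05 was found for 5 and 2 of them, all positive. Of all probe sets, 14% had such a p in either direction and 10.1% in the positive one. Changes were positive for 33 of the 35 and 14 of the 20, against 56.1% of all probe sets. Every array with progestin plus doxycycline was above every progestin array in 20 of the 35 and 4 of the 20, against 14.8%. Every array was below in 0 and 1, against 6.43%. The 35 genes were selected with earlier results of these data known.

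Cells with progestin plus doxycycline were also set against vehicle. This comparison shares its vehicle arrays with that of progestin alone, so the values are given side by side. With progestin plus doxycycline relative to vehicle, 33 of 41 genes rose, 1 fell and 7 were not called, against 15.6% of all probe sets higher and 12.5% lower. Rises of at least 2-fold that passed the test numbered 30 of 41, against 3.09% of all probe sets. Every array with progestin plus doxycycline was above every vehicle array in 35 of 41 genes and below in 1, against 23.5% and 18.4% of all probe sets. The median log2 change was 1.39, beside 1.28 with progestin alone. CMPK2 differed from vehicle by 4.90 with progestin plus doxycycline and by 4.97 with progestin. XAF1 differed by 4.90 with progestin plus doxycycline and 4.63 with progestin, and SAMD9 by 4.43 with progestin plus doxycycline and 4.00 with progestin. For GBP2 the change was 1.17 with progestin plus doxycycline and 0.72 with progestin, and for LGALS3BP it was 1.39 with progestin plus doxycycline and 1.55 with progestin. SLFN11, the gene that fell, changed by -1.32 with progestin plus doxycycline and -1.54 with progestin. Of the 35 other interferon-induced genes, selected with earlier results of these data known, 35 rose with progestin plus doxycycline relative to vehicle, with a median of 3.01. LGALS9 passed here (adjusted p = 0.0198) but not without progestin plus doxycycline replicate 2 (adjusted p = 0.0596) or replicate 3 (adjusted p = 0.0568).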

How the data were processed

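Gene-level RNA was measured on 9 Affymetrix arrays of T47D cells. The authors deposited log2 values of 33297 probe sets. The submitters' processing notes list PLIER, limma, Affymetrix Expression Console and Affymetrix Power Tools, without roles, and the genome build was not given in the sources used here. Deposited log2 values were used without further normalization. Some reached -16.61, so dim probe sets can give inflated log2 changes. For the 41 genes with progestin relative to vehicle, folds with 16 added to the linear value are given in 2 cases. These are where they differ from the deposited ones by over 1.5 times, and CXCL10. Of the probe sets, 19460 carried 1 symbol, 1754 several and 12083 none. Current RefSeq symbols matched 19429 of the single-symbol probe sets.

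Group means were fitted to all 9 arrays with limma 3.58.1 (lmFit and eBayes, R 4.3.3), with Benjamini-Hochberg adjustment over 21214 probe sets with a symbol. A call is an adjusted p under 0.05. An exact permutation test of 3 against 3 arrays cannot go below p = 0.1. Precision is limited by the number of arrays, and the median residual SD was 0.151. The genes and lists were chosen with earlier results of these data known. Genes named were the 15 largest rises with progestin, those that fell or were not called, the 5 smallest p with doxycycline, and others described by role. Alternatives covered normalization, variance estimation, filters, array weights, the groups fitted, shared probe sets, a replicate block and each array left out.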

Additional observations from a re-analysis of the deposited data

How the results depend on the processing

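Progestin relative to vehicle gave 32 to 34 genes called higher and 1 called lower over the 9 fits that left out 1 array each, with medians of 1.25 to 1.33. Progestin plus doxycycline relative to vehicle gave 32 to 34 higher and 1 lower, with medians of 1.32 to 1.40. Progestin plus doxycycline relative to progestin gave 0 in either direction, with medians of 0.09 to 0.17. In the fit to all 9 arrays, 13.4% of all probe sets were called higher and 15.6% lower for progestin relative to vehicle. For progestin plus doxycycline the shares were 15.6% and 12.5% relative to vehicle, and 0.0189% in either direction relative to progestin. The shares of all probe sets under the other settings are not given in this section. Against vehicle, 2 genes were called lower, for both progestin groups, with array weights, with probe sets of several symbols allowed, and without vehicle replicate 3 combined with a variance trend and robust estimation. That last combination, chosen after seeing the data, also called 2 genes higher (SAMD9 and ADAR) with progestin plus doxycycline relative to progestin. Allowing probe sets of several symbols, also chosen after seeing the data, replaced SP100 by a brighter one shared with CTCFL and HMGB1. Its values were -0.12 for progestin plus doxycycline relative to progestin, -0.77 for progestin relative to vehicle and -0.89 for progestin plus doxycycline relative to vehicle. CXCL11, uncalled, had a change with progestin plus doxycycline relative to vehicle of 0.05, of -0.0038 after quantile normalization, and of -0.0469 (without progestin plus doxycycline replicate 2) to 0.11 when 1 array was left out. The LGALS9 call with progestin relative to vehicle was also lost with a variance trend and robust estimation (adjusted p = 0.051), with only those groups fitted (0.0628) and with all probe sets tested (0.0507). Array weights called APOL3 (0.44), GBP3 (0.92) and IFI30 (-0.15), and the fit of only the compared groups called GBP5 (adjusted p = 0.0249). Without the dimmest 25% of probe sets, 35 genes were measured, of which 30 rose and 1 fell. Whether replicate numbers mark shared experiments was left undecided. Of 9 same-number pairs, 3 had correlated deviations from the group means over 0.1 (-0.262 to 0.48). Arrays matched their own number best in 6 of 18 combinations. Between vehicle and progestin plus doxycycline the values were -0.10, 0.48 and 0.46 for replicates 1, 2 and 3. With 3 arrays a group such deviations sum to 0, so this check cannot decide the question. A replicate block gave the same counts, 33 higher and 1 lower for each progestin group relative to vehicle, and 0 for progestin plus doxycycline relative to progestin, but the ELF5 difference with progestin plus doxycycline relative to progestin lost its call with the block (adjusted p = 0.203). Causes of these shifts were not tested. Dim signals limit the interferon ligands other than IFNL1 and IFNL3, and also LGALS9, IFI16, CASP1 and CXCL10.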
